A study of Mus musculus with 6 samples.

Results

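Potassium channel subunits were followed in the brain of mice with and without Pla2g2e, the gene of a secreted phospholipase A2. The 38 subunits were chosen by name, as a list that covers the main channel families and their auxiliary proteins. The list is defined by gene names, not by a threshold on measured values. All 38 were measured and tested, among 22565 genes in all. They were read by 63 probes, of which 59 were well above background on all 6 arrays. The samples were 3 brains labelled wild-type sham and 3 labelled Pla2g2e-deficient sham, all of male mice of the C57BL/6N strain, with no age in the labels. By title and description these were sham operations, yet the treatment text of each speaks of a middle cerebral artery occluded for 60 min, and the labels do not settle which holds. How the deficient allele was made, which part of the gene it lacks and whether each sample is a separate animal are not given in the labels. The p-values therefore reflect the spread among these 6 samples alone, which may be technical.

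Potassium channels let potassium leave or enter a cell along its gradient, and in neurons they set the resting potential, end the action potential and limit repetitive firing. A voltage-gated channel is a tetramer of alpha subunits, inward rectifiers hold neurons and astrocytes near the potassium equilibrium, and two-pore channels carry leak current. Calcium-activated channels follow the calcium that enters during a spike. Polyunsaturated fatty acids, a product class of phospholipase A2, are known to act directly on several of these channels, among them the two-pore channel Kcnk2.

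Each array held 39429 probes apart from controls, and between 82.0% and 85.3% of the spots were well above background. Correlations between arrays ranged from 0.992 to 0.998. One slide, called the shared slide here, carried all wild-type arrays and knockout 1, and another carried knockout 2 and 3. Both Pla2g2e probes were dim. The brighter one, at chr4:138438659-138438718, read -7.31 to -6.73 in wild type and -7.94 to -7.11 in knockout (log2 signal minus the 75th percentile of the same array, the scale of all levels here), and the other, at chr4:138438368-138438427, read -9.20 to -8.55 and -8.51 to -8.45. Coordinates are those of the array files on mm9. Their position against the deleted part is unknown, so they do not check the genotype labels.

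The comparison asked whether transcripts of potassium channel subunits differ between Pla2g2e-deficient and wild-type brain. Of the 38 subunits 0 passed the limma test after Benjamini-Hochberg adjustment over all genes (lowest adjusted p among them 0.345), and of 22565 genes 0 passed (0%; lowest adjusted p 0.196). At an unadjusted p under 0.05 there was 1 subunit, Kcnn1, which was higher in knockout and encodes a small-conductance calcium-activated channel. The share over all genes at that threshold was 12.4%, with 3.1% higher and 9.34% lower in knockout. In 2 subunits, Kcnc2 and Kcnk3, every knockout value lay above every wild-type value. Groups did not overlap for 19.7% of all genes, 7.63% with knockout higher.

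Most differences were small, and the intervals bounded many of them. The difference, knockout minus wild type on the log2 scale, was above 0 for 24 subunits and below 0 for 14, with a median of 0.078 and a range from -0.65 for Kcna5 to 0.66 for Kcnn1. Over all genes the median was -0.013. The median size regardless of sign was 0.11 among the subunits and 0.11 over all genes. For 31 of 38 subunits the unadjusted 95% interval of the difference lay inside a 1.5-fold change in either direction, against 71.6% of all genes. The other 7 were Kcna5, Kcnq5, Kcnk2, Kcnk3, Kcnn1, Kcnn2 and Kcnn3. Scaling shifted the counts of direction: centring each array on its median moved the median of all genes by 0.12, and 35 subunits were then above 0 and 3 below. Relative to the median of all genes, the subunits' median was 0.092 in both scalings.

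**Figure D1:**
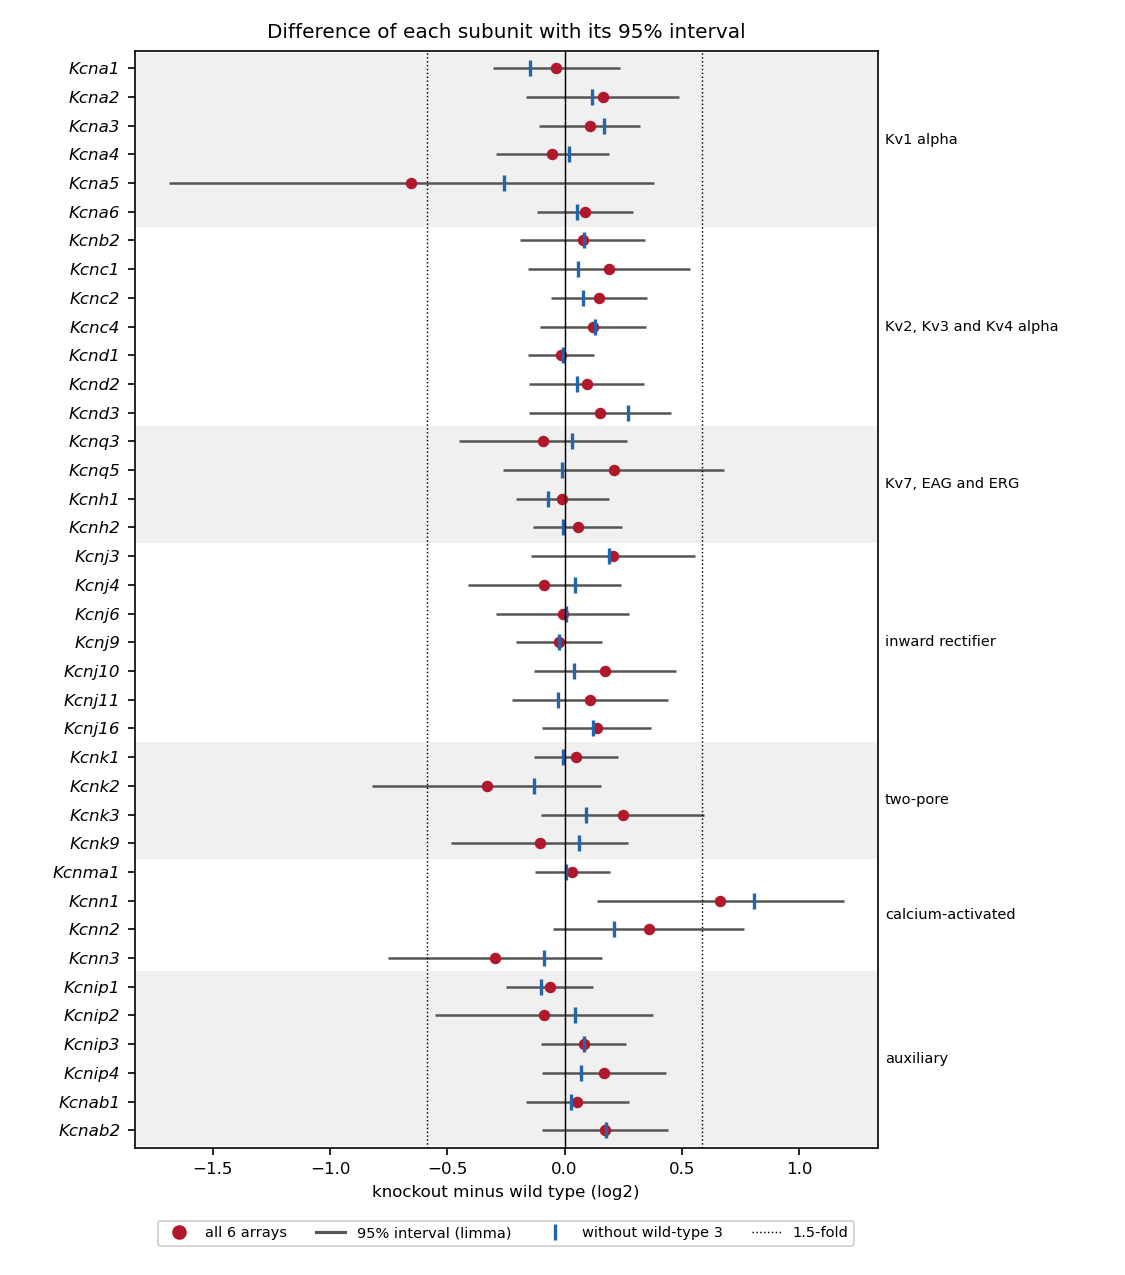
Difference between knockout and wild type for each of the 38 subunits, grouped by channel class, on the log2 scale with its 95% interval from limma (n = 3 arrays per group). Most points lie near 0, and the interval of Kcnn1 alone, from 0.14 to 1.19, leaves out 0.

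The Kv1 alpha subunits are low-threshold channels of axons and terminals. Of the 6, 3 were above and 3 below 0, with a median difference of 0.026 (0.0069 within the shared slide), 0 at an unadjusted p under 0.05 and 0 with groups apart. Kcna1, an axonal subunit whose loss causes episodic ataxia and seizures, read 3.72, 3.70 and 3.37 in the wild-type arrays (1, 2 and 3, the order used throughout) and 3.55, 3.62 and 3.51 in the knockout arrays. The knockout values lay within the wild-type range, and the difference was -0.035 ± 0.11 (SE; limma, Benjamini-Hochberg adjusted p = 0.910).

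Kcna5, known from arterial smooth muscle and heart, had the widest spread of all 38. Its brighter probe read -3.30, -4.36 and -2.64 in wild type and -3.99, -4.01 and -4.25 in knockout. Wild-type 3 was highest and wild-type 2 lowest, so the groups overlapped. The difference was -0.65 ± 0.42 (limma, Benjamini-Hochberg adjusted p = 0.549). It was -0.26 without wild-type 3 and -1.12 without wild-type 2. A second Kcna5 probe, 0.8 kb away on chromosome 6, read -4.67, -4.71 and -4.40 in wild type and -4.91, -5.00 and -5.16 in knockout. On that probe the groups did not overlap, and the difference was -0.43 ± 0.11 (limma with each probe as its own gene, Benjamini-Hochberg adjusted p = 0.303). All 10 markers of pericytes and smooth muscle were also lower in knockout, by a median of 0.29 (summed linear level, as log2, 3.03 to 3.24 in wild type and 2.73 to 2.93 in knockout), and their part in the Kcna5 values was not tested. In whole tissue, fewer cells of a type and less RNA per cell cannot be told apart.

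Kcna2, the partner of Kcna1 at the flanks of the nodes of Ranvier, gave a different level with each of its 3 probes. They lie within 15.7 kb on chromosome 3, and the starts of their sequences (the first 30 of 60 bases, 5′ to 3′, as the array files give them) are shown because they give 3 different levels for 1 symbol:
Kcna2 probe 1, chr3:106909700-106909759: actcacatgactgaactttggggattaatc
Kcna2 probe 2, chr3:106915982-106916041: ttacttagaagtgggtgggagggattcctc
Kcna2 probe 3, chr3:106900300-106900359: accataatgaagctcacagtagactcattc
Probe 1 read 0.26, -0.22 and -0.12 in wild type and 0.17, 0.10 and 0.15 in knockout. Probe 2 read -3.63, -4.25 and -4.25 in wild type and -3.77, -3.78 and -3.79 in knockout. On both, wild-type 1 was highest and the 3 knockout arrays lay close together inside the wild-type range. Their differences were 0.16 ± 0.13 and 0.26 ± 0.18. That of probe 1 was 0.31 without wild-type 1 and 0.065 without wild-type 2. On all 6 arrays probe 3 failed to rise well above background. Kcna3, a channel of lymphocytes and microglia, differed by 0.11, Kcna4, which inactivates fast, by -0.053, and Kcna6, another Kv1 alpha subunit, by 0.087.

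Kv2, Kv3 and Kv4 subunits repolarize the cell body and dendrites and allow fast spiking. Of the 7, 6 were above 0 and 1 below, with a median of 0.12 (0.078 without wild-type 3) and 0 at an unadjusted p under 0.05. Kcnc2, a Kv3 subunit of fast-spiking interneurons, read 1.22, 1.26 and 1.03 in wild type and 1.29, 1.39 and 1.29 in knockout. Every knockout value was above every wild-type value, the nearest being wild-type 2 and knockout 3. The difference was 0.15 ± 0.083 (limma, Benjamini-Hochberg adjusted p = 0.503), and 0.078 without wild-type 3, which was the lowest array. Interneuron markers had a median difference of 0.051, with 8 of 10 higher, and a summed level of 7.38 to 7.62 in wild type and 7.45 to 7.70 in knockout. Cck, at 6.49 to 6.87, was the brightest of these markers and weighs most in the sum. Pvalb was lowest on wild-type 3, at 2.90 against 3.65 to 3.89 elsewhere. Gad1 and Cck were also lowest on that array, and the other listed markers were not. The part of interneuron markers in the Kcnc2 values was not tested.

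Kcnc1, the other Kv3 subunit typical of fast-spiking cells, read 2.14, 1.96 and 1.66 in wild type and 2.00, 2.25 and 2.09 in knockout. Wild-type 3 was again lowest and wild-type 1 lay inside the knockout range. Its difference of 0.19 ± 0.14 (limma, Benjamini-Hochberg adjusted p = 0.602) was 0.057 without wild-type 3, 0.30 without wild-type 1 and 0.075 within the shared slide. The 2 further Kcnc1 probes gave -0.075 and 0.066, so the 3 probes did not share a sign. Wild-type 3 was the highest array on the former probe, at 1.46, and the lowest on the latter, at 0.62. Kcnd1, a Kv4 subunit of A-type current, read -1.39, -1.37 and -1.36 in wild type and -1.38, -1.36 and -1.44 in knockout. These were the tightest values in the list, with a difference of -0.016 ± 0.057 and a 95% interval from -0.16 to 0.12. Its 2 dimmer probes gave larger differences in the same direction, -0.22 and -0.45, the first from 5 arrays because 1 knockout 3 spot was left out. Kcnd2 and Kcnd3, the main dendritic and interneuron Kv4 subunits, differed by 0.095 and 0.15, Kcnc4 by 0.12 and Kcnb2, a delayed rectifier, by 0.076.

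Kv7, EAG and ERG subunits carry slow currents that restrain firing. Of the 4, 2 were above and 2 below 0, with a median of 0.023, which was -0.0089 without wild-type 3 and -0.011 within the shared slide. Kcnq5, which contributes to the M current, read -0.91, -0.80 and -1.52 in wild type and -0.85, -0.93 and -0.82 in knockout. The difference of 0.21 ± 0.19 (limma, Benjamini-Hochberg adjusted p = 0.671) came with 1 low array, wild-type 3, and was -0.012 without it and 0.35 without wild-type 2. A second Kcnq5 probe also read lowest on wild-type 3, at -4.62, and differed by 0.36. Kcnh1, the EAG channel, read -2.08, -2.19 and -2.32 in wild type and -2.23, -2.23 and -2.14 in knockout, which is inside the wild-type range. Kcnq3, an M-current subunit, differed by -0.093. Kcnh2, the ERG channel known from cardiac repolarization and long QT syndrome, differed by 0.055.

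Inward rectifiers comprise G-protein-gated channels (Kcnj3, Kcnj6, Kcnj9), strong rectifiers (Kcnj4), glial channels (Kcnj10, Kcnj16) and the pore of the ATP-sensitive channel (Kcnj11). Of the 7, 4 were above 0 and 3 below, with a median of 0.11, 0 at an unadjusted p under 0.05 and 0 with groups apart. That median was 0.042 without wild-type 3 and -0.0050 within the shared slide. Kcnj3, the common partner of the G-protein-gated channels, read -1.83, -2.38 and -2.16 in wild type and -1.89, -1.92 and -1.93 in knockout. The knockout arrays lay within 0.035 of each other and wild-type 1 lay above them. Its difference was 0.21 ± 0.14 (limma, Benjamini-Hochberg adjusted p = 0.573), while a second Kcnj3 probe gave -0.013. The first probe gave 0.35 without wild-type 1, 0.077 without wild-type 2 and 0.039 after normexp background correction with quantile normalization. Kcnj6 read -4.06, -4.36 and -4.17 in wild type and -4.28, -4.03 and -4.30 in knockout, with both groups over nearly the same range. Kcnj9 differed by -0.024.

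The astrocytic subunits were read on chromosomes 1 and 11. Kcnj10, the main channel of potassium uptake by astrocytes, read 3.50, 3.59 and 3.15 in wild type and 3.60, 3.60 and 3.56 in knockout. Wild-type 3 was the low array, the other 5 spanned 0.10, and the difference of 0.17 ± 0.12 was 0.042 without wild-type 3 and 0.26 without wild-type 2. Kcnj16, which joins Kcnj10 in heteromers, read 1.16, 1.16 and 1.10 in wild type and 1.14, 1.45 and 1.24 in knockout. Knockout 2, on the second slide, was highest, and within the shared slide the difference of 0.14 was -0.0050. Astrocyte markers had a median difference of 0.0083 with 6 of 10 higher, and a summed level of 7.33 to 7.43 in wild type and 7.26 to 7.48 in knockout. Kcnj4, a strong rectifier of forebrain neurons, differed by -0.086 and was highest on wild-type 3. Kcnj11 differed by 0.11.

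Two-pore channels carry background potassium current, and their median difference over 4 subunits was -0.029, with 2 above and 2 below 0. It was 0.028 without wild-type 3 and 0.089 with arrays centred on their median. Kcnk2, which opens to stretch and to arachidonic acid, read -2.85, -3.21 and -2.42 in wild type and -3.25, -3.13 and -3.10 in knockout. Wild-type 3 was highest and wild-type 2 lay among the knockout arrays. The difference was -0.33 ± 0.20 (limma, Benjamini-Hochberg adjusted p = 0.526), with a 95% interval from -0.82 to 0.16. It was -0.13 without wild-type 3 and -0.52 without wild-type 2. Kcnk3, an acid-sensitive leak channel, read -0.16, -0.16 and -0.63 in wild type and -0.028, -0.099 and -0.083 in knockout. The groups did not overlap, with wild-type 1 and 2 close beneath the knockout arrays and wild-type 3 far below. Its difference was 0.25 ± 0.14 (limma, Benjamini-Hochberg adjusted p = 0.507) and 0.090 without wild-type 3. Kcnk9, the other acid-sensitive channel of the list, went the other way, with wild-type 3 highest at 2.06 against 1.47 to 1.65 on the other arrays and a difference of -0.11. Kcnk1, a weakly conducting leak channel, read 1.79, 1.79 and 1.63 in wild type and 1.84, 1.77 and 1.74 in knockout, a difference of 0.048 ± 0.073.

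**Figure D2:**
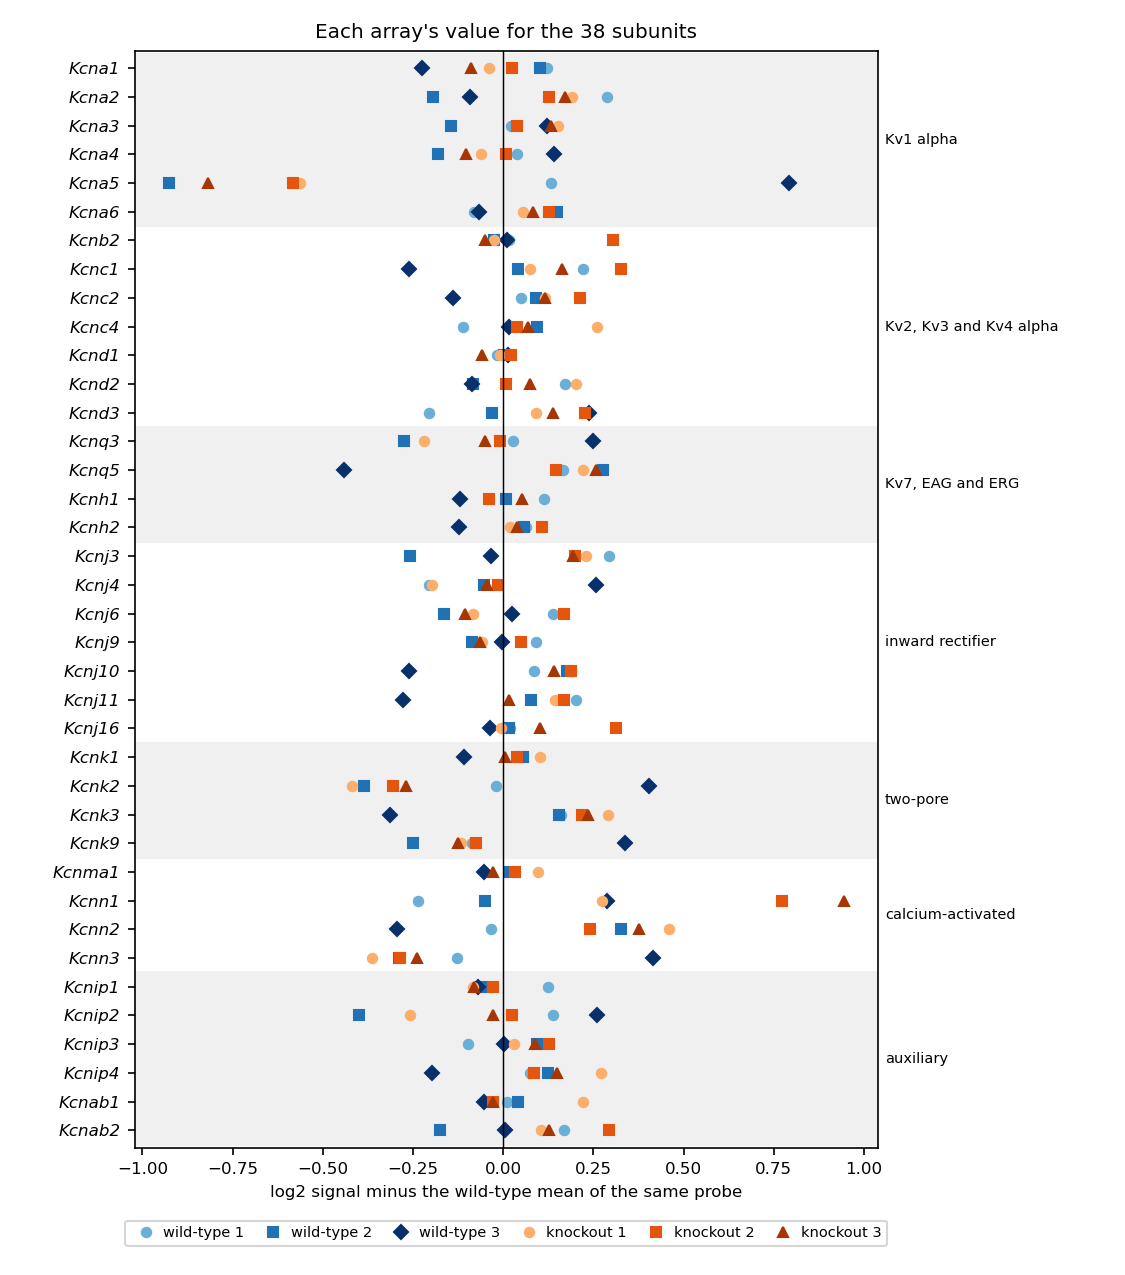
Value of each of the 6 arrays for each of the 38 subunits, as log2 signal minus the wild-type mean of the same probe. The dark blue diamonds of wild-type 3 mark the edge of the row in 25 of 38 subunits, and the knockout arrays of Kcnn1 reach furthest to the right.

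Calcium-activated channels had a median difference of 0.20 over 4 subunits, with 3 above and 1 below 0. The median was 0.11 without wild-type 3 and 0.070 after normexp background correction with quantile normalization. The latter setting adds an offset of 50 to every intensity, which by construction shrinks differences of dim probes such as those of Kcnn1. The class holds the list's largest positive difference, in Kcnn1, and its members did not move alike. The small-conductance channels Kcnn1, Kcnn2 and Kcnn3 are opened by calcium through bound calmodulin and produce the after-hyperpolarization, and Kcnma1 encodes the large-conductance channel, which senses voltage as well.

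Kcnn1 was read by 2 dim probes 21.5 kb apart on chromosome 8, whose starts (the first 30 of 60 bases, 5′ to 3′) are shown since the difference between groups rests on them:
Kcnn1 probe 1, chr8:73366034-73366093: aatagaggttgacagtggaacactcccaat
Kcnn1 probe 2, chr8:73387565-73387624: acaaattcagttttggagagccacctcaga
Probe 1 read -8.17, -7.98 and -7.65 in wild type and -7.66, -7.16 and -6.99 in knockout. Knockout 2 and 3, the arrays of the second slide, were highest, and knockout 1 lay level with wild-type 3. The processed intensity behind these values was only 7.43 to 18.2 units. The difference was 0.66 ± 0.21 (95% interval 0.14 to 1.19; limma, Benjamini-Hochberg adjusted p = 0.345). It was 0.27 on the shared slide and 0.11 after normexp background correction with quantile normalization. The offset of 50 in that setting exceeds these intensities and shrinks the difference by construction, so the 0.11 does not test the background treatment. Probe 2 read -9.40, -9.90 and -9.88 in wild type and -9.24, -8.09 and -8.20 in knockout, and was well above background on knockout 2 and 3 only. No fold is given for probe 2, since no wild-type array and only 2 of the 3 knockout arrays read it well above background. On both probes the second slide carried the high values, and genotype and slide cannot be told apart for those 2 arrays.

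**Figure D3:**
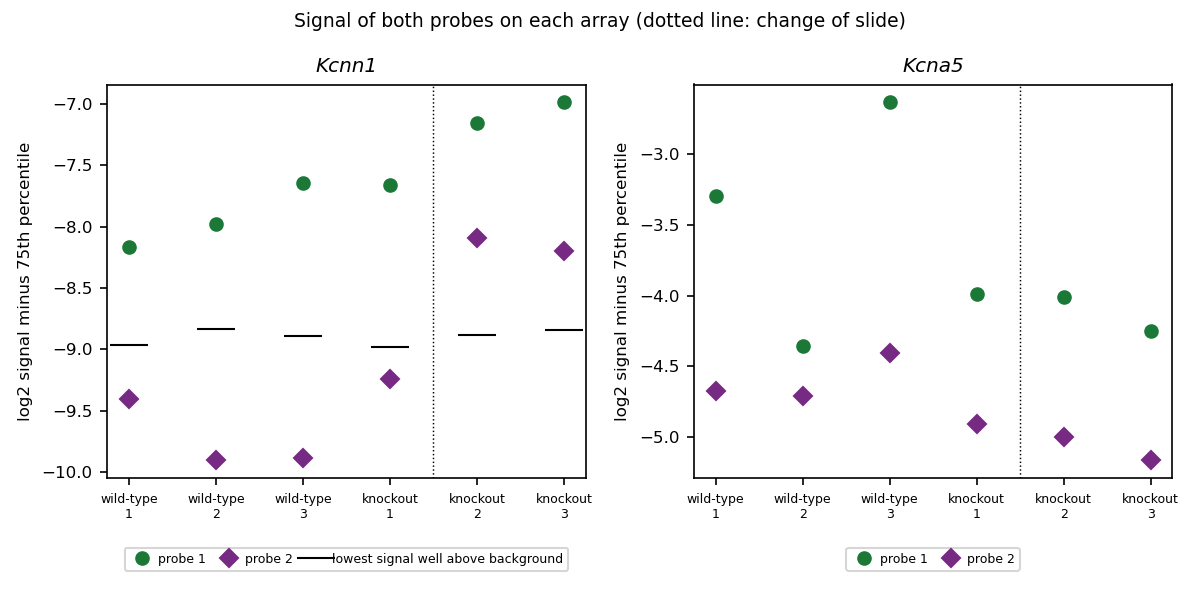
Log2 signal of both probes of Kcnn1 and of Kcna5 on each of the 6 arrays, relative to each array's 75th percentile; short bars in the Kcnn1 panel mark the lowest signal well above background on that array, and the dotted line separates the slides. Both Kcnn1 probes are highest on knockout 2 and 3, while Kcna5 probe 2 is lower on all 3 knockout arrays than on any wild-type array.

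Kcnn2, a small-conductance channel of cortex and hippocampus, read 1.08, 1.45 and 0.82 in wild type and 1.58, 1.36 and 1.49 in knockout. Wild-type 3 was lowest and wild-type 2 lay inside the knockout range. The difference was 0.36 ± 0.17 (limma, Benjamini-Hochberg adjusted p = 0.436), 0.21 without wild-type 3 and 0.46 within the shared slide. Kcnn3, which is prominent in monoaminergic neurons, read -3.27, -3.43 and -2.72 in wild type and -3.50, -3.42 and -3.38 in knockout. Here wild-type 3 was the highest array, and the difference of -0.30 ± 0.19 was -0.088 without it and -0.16 after normexp background correction with quantile normalization. Kcnma1 had 4 probes, and its brightest read 4.12, 4.11 and 4.04 in wild type and 4.18, 4.12 and 4.06 in knockout. That difference was 0.033 ± 0.065 with a 95% interval from -0.13 to 0.19. Its other probes gave 0.040, -0.18 and 0.048.

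Auxiliary subunits bind the channels inside the cell: Kcnip proteins are calcium sensors that bring Kv4 channels to the surface, and Kcnab proteins bind Kv1 channels. Of the 6, 4 were above 0 and 2 below, with a median of 0.068. Kcnab2 read -3.66, -4.00 and -3.82 in wild type and -3.72, -3.53 and -3.70 in knockout. Wild-type 1 lay inside the knockout range, and the difference was 0.17 ± 0.11 (limma, Benjamini-Hochberg adjusted p = 0.544), 0.086 without wild-type 2 and 0.10 within the shared slide. It was the only subunit of the 38 on chromosome 4, where Pla2g2e lies (probe at chr4:151766899-151766958). Kcnab1 read 1.89, 1.92 and 1.83 in wild type and 2.10, 1.85 and 1.85 in knockout, where knockout 1 alone was high. Among the Kv4 partners, Kcnip1, Kcnip2, Kcnip3 and Kcnip4 differed by -0.064, -0.087, 0.081 and 0.17. The Kv4 alpha subunits they bind had differences between -0.016 and 0.15.

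**Figure D4:**
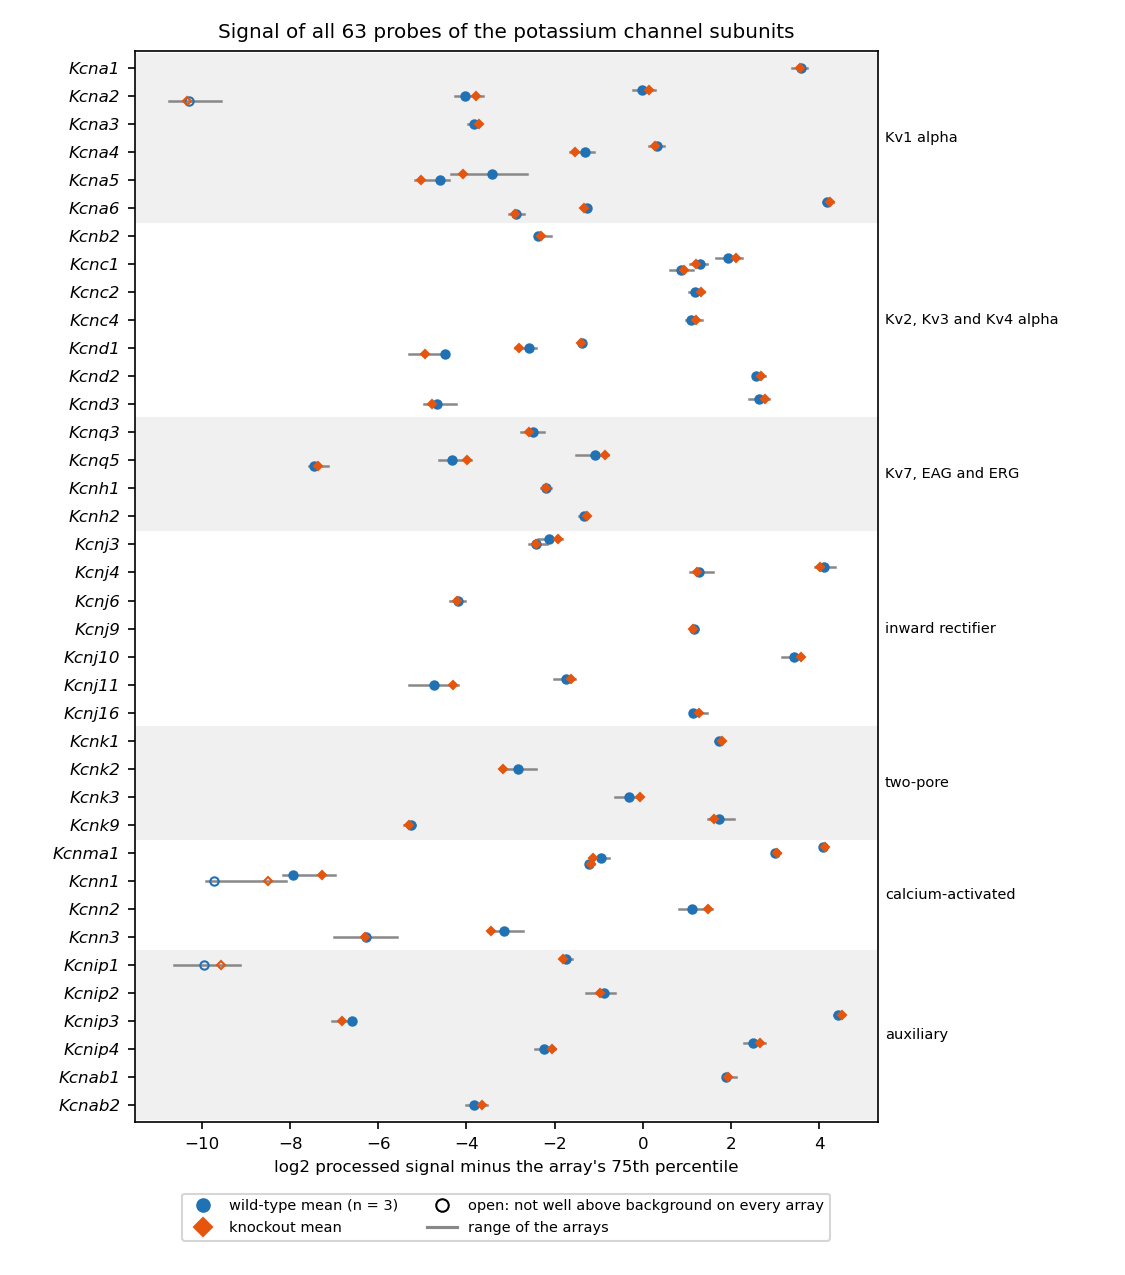
Wild-type and knockout mean of every member probe (log2 signal relative to the 75th percentile, n = 3 arrays per group but 2 knockout arrays for 1 Kcnd1 probe), with grey lines for the range of the arrays and open symbols for probes not well above background on all their arrays. Probes of 1 gene can lie many log2 units apart, as for Kcna2, Kcnd3 and Kcnip3, and group means lie close together at nearly every probe.

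Several probes of a gene offered a second reading of the same comparison. Of the 18 subunits with several probes, 16 had at least 2 that could be tested, and in 10 of these all tested probes shared their sign. The exceptions, Kcna6, Kcnc1, Kcnd3, Kcnj3, Kcnma1 and Kcnip3, had no pair of probes on opposite sides of 0 by 0.2 or more each. With each probe as its own row, 0 of 60 subunit probes passed the limma test after Benjamini-Hochberg adjustment (lowest adjusted p 0.303). At an unadjusted p under 0.05 there were 2, the brighter Kcnn1 probe and the second Kcna5 probe, against 12.1% of all probes.

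Wild-type 3 marked the highest or lowest value of 25 of 38 subunits (65.8%), against 52.5% of all genes with 6 values. It stood apart, meaning that its distance to the nearest array exceeded the whole range of the other 5, for 13 subunits (34.2%), against 12.1% of all genes. Each other array stood apart for 1 or 2 subunits. Wild-type 3 lay above the rest for Kcnj4, Kcnk2, Kcnk9 and Kcnn3. It lay below for Kcnc1, Kcnc2, Kcnq5, Kcnh2, Kcnj10, Kcnj11, Kcnk1, Kcnk3 and Kcnip4. The list therefore held subunits on both sides, and leaving the array out gave a median difference of 0.043 in place of 0.078. Among the 49 other potassium channel subunits tested, wild-type 3 stood apart by the same rule only for Kcns3, Kcnh8, Kcnj5, Kcnj14, Kcnk12, Kcne4 and Kcnmb4. The larger share is thus one of this list, which was chosen with earlier results of these data known, and its cause was not tested.

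**Figure D5:**
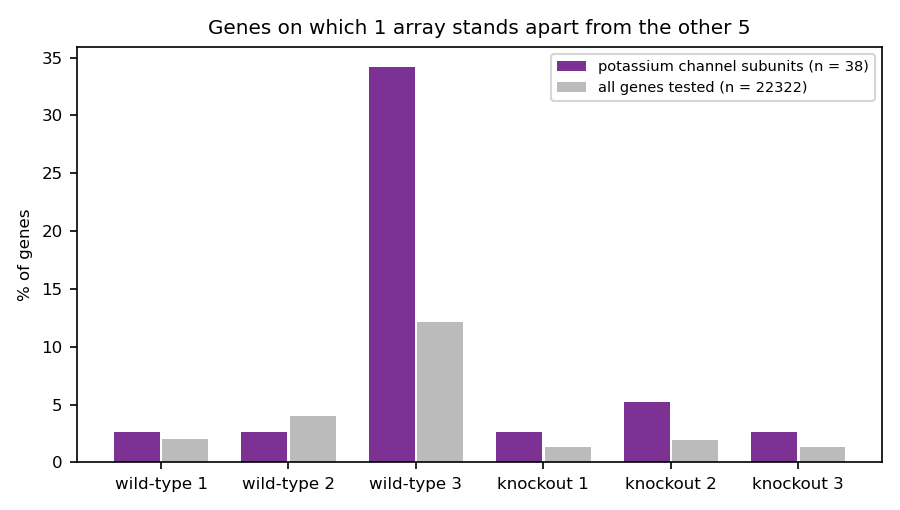
Percent of genes for which each array's distance to the nearest other array exceeds the range of the remaining 5, for the 38 subunits and for the 22322 genes with a value on all 6 arrays. The bar of wild-type 3 reaches 34.2% for the subunits and 12.1% for all genes, and every other bar is at or below 5.26%.

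Among the region lists, striatum markers moved most on wild-type 3. Hippocampus, thalamus, cerebellum and neocortical lists deviated there by medians of 0.25, 0.13, 0.064 and -0.12 from the wild-type mean. Choroid plexus, meningeal and oligodendrocyte lists deviated by 0.60, 0.41 and -0.42. The 12 striatum markers deviated on wild-type 3 by a median of 0.94 from the wild-type mean, and on the other 5 arrays by -0.70 to -0.22. Adora2a, the adenosine receptor of indirect-pathway striatal neurons, read 0.73 on wild-type 3 and -3.25 to -1.50 elsewhere. All 12 were lower in knockout, with a median of -0.60, and their summed level was 5.34 to 6.64 in wild type and 5.39 to 5.66 in knockout. Wild-type 3 was the highest array for each of the 12, so this count leans on it. Wild-type 2 deviated by -0.65, inside the -0.70 to -0.51 of the knockout arrays. All 10 choroid plexus and all 10 meningeal markers were also lower in knockout, with medians of -0.58 and -0.47. The summed levels were 4.56 to 5.45 and 4.61 to 5.05 for choroid plexus, and 3.46 to 4.26 and 3.16 to 3.60 for meninges. Of the oligodendrocyte markers 9 of 10 were lower, with a median of -0.34 and summed levels of 6.66 to 7.26 and 6.50 to 6.87. Neocortical projection neuron markers had a median of 0.16 (5.12 to 5.33 and 5.23 to 5.32). The tested markers of these and the other lists were well above background on all 6 arrays, except Gabra6 of the cerebellum, which was so on 4, and Tac1 and Rasgrf2, each of which lacked a value on knockout 3. The part that the share of these regions had in the subunit values was not tested.

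The rest of the channel genes gave a background for the list. Of 53 other potassium channel subunits 49 were tested, 25 above and 24 below 0, with a median of 0.0076 and 0 past the limma test after Benjamini-Hochberg adjustment. Of these, 3 were higher and 5 lower at an unadjusted p under 0.05, beside the 12.4% of all genes (3.1% higher, 9.34% lower), and 9 had groups that did not overlap, beside 19.7% of all genes. Their median was -0.066 within the shared slide. Kcnj12 and Kcnj2, strong inward rectifiers whose probes both lie on chromosome 11, differed by 0.36 and 0.32, and the groups did not overlap (limma, Benjamini-Hochberg adjusted p = 0.327 and 0.363). Within the shared slide Kcnj12 differed by 0.20 and Kcnj2 by 0.36. Kcnj12 read 0.030, 0.20 and 0.18 in wild type and 0.33, 0.69 and 0.48 in knockout. Kcnj2 read -4.78, -5.16 and -4.82 in wild type and -4.56, -4.64 and -4.59 in knockout. Kcnh6, an ERG relative, differed by 0.34 and by 0.15 within the shared slide. Its signal was dim, and normexp background correction with quantile normalization, with its offset of 50, gave 0.21.

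Among those lower, Kcnk5 read -6.39, -6.60 and -6.32 in wild type and -7.75, -8.20 and -6.91 in knockout. The difference was -1.18 ± 0.32 (limma, Benjamini-Hochberg adjusted p = 0.302), and -0.24 after normexp background correction with quantile normalization. Kcne3, a single-pass accessory subunit, differed by -0.33, by -0.046 under the same correction and by -0.20 within the shared slide. Both genes were dim, and the offset of 50 in that correction shrinks their differences by construction. Kcnj13, the inward rectifier of choroid plexus epithelium, read -1.20, -1.83 and -0.70 in wild type and -2.06, -1.88 and -1.90 in knockout. Its lowest wild-type value lay just above the knockout arrays, and the difference was -0.70 ± 0.28 (limma, Benjamini-Hochberg adjusted p = 0.396) and -0.43 without wild-type 3. Kcnj13 and the choroid plexus list were both highest on wild-type 3. Kcnj13 was lowest on knockout 1, where that list deviated by a median of -0.032 from the wild-type mean. The list was lowest on wild-type 2, at -1.07. The part of choroid plexus in the Kcnj13 values was not tested. Of 25 channel partners and potassium transport genes 24 were tested, with a median of 0.042 (-0.026 within the shared slide) and 0 at an unadjusted p under 0.05. Groups did not overlap for 3 of these 24, beside 19.7% of all genes (7.63% with knockout higher). They were Dpp6, which binds Kv4 channels, Dlg1, a scaffold of Kv1 channels, and Slc12a5, the neuronal potassium-chloride exporter. Their differences were 0.15, 0.15 and 0.080 (limma, Benjamini-Hochberg adjusted p = 0.409, 0.449 and 0.608). Within the shared slide they were 0.21, 0.16 and 0.028.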

How the data were processed

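Total RNA (200 ng per sample, labelled with Cy3) of 6 brain samples was measured on 1-colour Agilent arrays. The deposited values are spot intensities that Agilent Feature Extraction 12.1.1.1 extracted on an mm9 grid, background-subtracted on a linear scale, per the file headers. Control spots and spots marked as non-uniform or population outliers were left out, the log2 intensity was centred on the array's 75th percentile. Spots of a probe were averaged. Testing took probes that, in 1 group or both, were well above background on all arrays and had at least 2 values per group, and the brightest tested probe stood for its gene. Groups were compared with limma 3.58.1 in R 4.3.3 with no covariate, two-sided, with Benjamini-Hochberg adjustment over 22565 genes at 0.05; the script was tested on simulated data. A difference of dim probes depends on the background treatment, and 3 arrays per group limit the precision of every value. Normexp background correction, used as an alternative, added an offset of 50 to every intensity. That shrinks log2 differences of dim probes whatever their background, so this alternative does not isolate the background treatment.

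Members and lists were chosen with earlier results of these data known. Values of each array were printed for members with an unadjusted p under 0.05 or groups apart. They were also printed for the largest and smallest difference of each class. Up to 6 related genes, chosen by non-overlapping groups and smallest p, were named. Of these, Kcnj12, Kcnj2, Kcnk5 and Kcnj13 have values of each array, and Kcnh6 and Kcne3 have differences alone. Kcna2, Kcnj10, Kcnj16, Kcnk9, Kcnn2, Kcnn3, Kcnj5, Dpp6, Dlg1, Slc12a5, Adora2a, Pvalb, Gad1, Cck and further probes were added after their values were seen. Hippocampus, thalamus, cerebellum, microglia, endothelium and blood marker lists had median differences of 0.030, -0.11, -0.41, -0.00084, -0.017 and -0.64. RefSeq accessions matched 29510 of 39429 probes to GRCm38.p6 names, and no member was renamed. No mm9 gene annotation was used, so exon and untranslated region are not given. Fits with each probe as its own row were chosen after seeing the data. In each pair of arrays 0% of probes held identical values.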

Additional observations from a re-analysis of the deposited data

How the results depend on the processing

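No subunit passed the adjusted threshold under any of the 18 alternatives. Leaving out 1 array gave 0 to 59 called genes over all genes, the 59 without knockout 1, with 0 subunits among them. The count of subunits at an unadjusted p under 0.05 was 1, Kcnn1. With normexp it became 2, Kcna3 and Kcnab2, without Kcnn1. Median centring gave 5 (Kcna3, Kcnj3, Kcnn1, Kcnn2 and Kcnab2) and quantile normalization 3 (Kcna3, Kcnn1 and Kcnab2). Kcna3 differed by 0.11 in the main fit, 0.19 with normexp and 0.26 with quantile normalization. The count was 0 with slide as a fixed block and 0 to 3 without single arrays. With the replicate number as a block it was 1, no gene was called and the subunits' median was 0.078; the numbers did not pair the samples (correlations of same-numbered deviations -0.016, -0.13 and -0.12). The subunits' median was 0.20 with median centring and 0.043 to 0.092 without single arrays. Of all genes at an unadjusted p under 0.05, 75.1% were lower, against 28.8% with median centring, 41.3% with normexp and 44.6% with quantile normalization.

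Differences were small after a change of sign, at most 0.16 in size, although that of Kcnq5 was 0.21 in the main fit. With median centring they were Kcna1 0.084, Kcna4 0.065, Kcnd1 0.10, Kcnq3 0.025, Kcnh1 0.11, Kcnj4 0.032, Kcnj6 0.11, Kcnj9 0.095, Kcnk9 0.012, Kcnip1 0.054 and Kcnip2 0.031, each below the shift of all genes. Normexp gave Kcnd1 0.017, Kcnh1 0.030 and Kcnj6 0.10, and quantile normalization gave Kcnd1 0.027, Kcnh1 0.053 and Kcnj6 0.16. Averaging probes gave Kcna6 -0.0010, Kcnma1 -0.014 and Kcnip3 -0.068. Slide as a block, and equally the slide with both genotypes alone, gave Kcnb2 -0.025 and Kcnj16 -0.0050. Without single arrays the ranges were -0.15 to 0.026 for Kcna1, -0.14 to 0.018 for Kcna4, -0.037 to 0.14 for Kcnb2, -0.034 to 0.0062 for Kcnd1, -0.23 to 0.031 for Kcnq3, -0.012 to 0.35 for Kcnq5, -0.070 to 0.048 for Kcnh1, -0.0060 to 0.087 for Kcnh2, -0.19 to 0.043 for Kcnj4, -0.095 to 0.062 for Kcnj6, -0.068 to 0.021 for Kcnj9, -0.030 to 0.21 for Kcnj11, -0.0055 to 0.076 for Kcnk1, -0.23 to 0.062 for Kcnk9, -0.29 to 0.043 for Kcnip2 and -0.028 to 0.097 for Kcnab1. Apart from the settings' own construction, the cause was not tested. Kcnn1 lies near background, and 3 arrays per group limit what can be told.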

Other observations

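Kcnj5, a G-protein-gated inward rectifier outside the list, had the widest wild-type spread of the other subunits quoted here, at -5.27, -4.73 and -2.64 in wild type and -5.71, -6.06 and -5.86 in knockout. Its difference was -1.66 ± 0.67, and -0.88 without wild-type 3 (limma, Benjamini-Hochberg adjusted p = 0.399 with all arrays). Its listed partners Kcnj3, Kcnj6 and Kcnj9 differed by 0.21, -0.0078 and -0.024.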
